A study of Sus scrofa with 12 samples.

Results

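The comparison described here is that of maternal diet at 35 days of gestation (dg) in the small RNA of fetal longissimus muscle, with the library of calorie-restricted sows (RE35) set against the library of sows on a normal diet (NE35). A miRNA was included when it had at least 10 reads in either library, which kept 397 of the 800 names in the deposited table, 276 of them known pig miRNAs and 121 candidate miRNAs that carry the identifier of a genome sequence and a number. Large White sows received the normal or the restricted diet after mating, and fetal muscle was taken at 35, 55 and 90 dg. Each diet and stage has 1 small RNA library and 1 mRNA library, so 6 libraries of each kind were available, and no separate samples within a diet and stage could be compared. The 2 libraries held 2921934 miRNA reads in RE35 and 1522142 in NE35, and the other 4 held 2019322 to 3811231. Of the 397 miRNAs, 349 had at least 10 reads in both libraries, 33 in RE35 only and 15 in NE35 only, and 4 had a maximum of exactly 10 reads, while 11 names with a maximum of 9 reads were left out.

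A miRNA is a short RNA that guides a silencing complex to messenger RNAs through its seed, the bases 2 to 8 from its 5′ end. Some miRNAs are made mainly in 1 tissue, such as miR-1, miR-133 and miR-206 in striated muscle or miR-192 and miR-194 in kidney, gut and liver, so the miRNAs of a tissue piece also reflect which cells it holds. In bulk tissue, fewer cells of a type and less RNA per cell cannot be told apart.

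The 5′ parts of 12 miRNAs follow, with the seed in capitals. They show the muscle miRNAs and some of the miRNAs with the lowest or highest ratios, and no sequence is printed for miR-192, miR-194a, miR-194b-5p, miR-202-5p, miR-429 and NC_010447.4_14166, which are not among the primers used here. The printed parts are taken from the forward primers of the study, 34 in all, after removal of the 14 bases that every primer shares, which left 12 to 18 bases, and 33 of them belong to a miRNA described here. The first group is of muscle miRNAs, the second of miRNAs lower in RE35 and the third of miRNAs higher in RE35.
miR-1: tGGAATGTaaagaagt
miR-206: tGGAATGTaaggaagtg
miR-133b: tTTGGTCCccttcaac
NC_010448.3_14733: tAATACTGcctggtaat
NC_010447.4_13656: aGGAATTTtggtt
NC_010446.4_12775: cGGGGTGTgggg
miR-30c-5p: tGTAAACAtcctacact
miR-126-3p: tCGTACCGtgagtaat
miR-20b: cAAAGTGCtcacagtgc
miR-106a: aAAAGTGCttacagtgca
NC_010454.3_1179: aCCCCACTcctg
miR-378b-3p: aCTGGACTtggagtc
miR-1 and miR-206 share 1 seed, and miR-20b and miR-106a share another. The seed of the candidate NC_010448.3_14733 is known as that of the epithelial miRNAs miR-200b, miR-200c and miR-429. The seed of miR-378b-3p also occurs in the candidates NC_010448.3_15620 and NC_010449.4_16480, whose log2 ratios of 0.68 and −0.38 rest on 17 and 26 reads in RE35 against 5 and 18 in NE35.

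The differences between the libraries were mostly small, and more miRNAs were far lower than far higher in RE35. The log2 ratio of RE35 over NE35, computed from the share of all miRNA reads with a prior count of 2, had a median of 0.03 over the 397 miRNAs, and the central part of the distribution, from the 25th to the 75th percentile, ran from −0.51 to 0.36. Of the 397 miRNAs, 14 (3.53%) were more than 2-fold higher in RE35 and 50 (12.6%) were more than 2-fold lower. More than 4-fold lower were 22, while 0 were more than 4-fold higher, and with clean reads these counts were 16 and 5. Under Fisher's exact test with p under 0.01 and a fold above 2, 9 (2.27%) were higher and 43 (10.8%) were lower, and this test compares the 2 libraries and not the diets. The division depends on the scaling. TMM scaling moved all ratios up by 0.25 on the log2 scale and gave 33 higher and 39 lower, DESeq2 size factors moved them by 0.20 and gave 27 and 39, and scaling to the clean reads of the libraries moved them by 0.66 and gave 96 and 27.

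**Figure D1:**
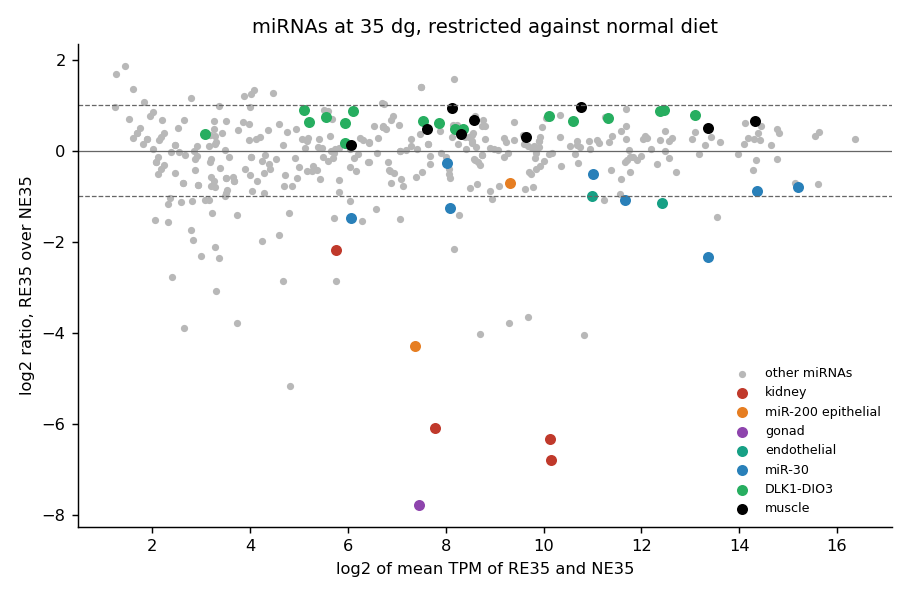
Log2 ratio of RE35 over NE35 (vertical axis) against the log2 of the mean TPM of both libraries (horizontal axis) for the 397 miRNAs, with 7 lists in colour and dashed lines at 2-fold. The gonad miRNA lies lowest at −7.78, and the kidney miRNAs run from −6.79 to −2.18. The muscle and DLK1-DIO3 miRNAs lie between 0.14 and 0.97.

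Among the miRNAs with the lowest ratios were 3 of the kidney list. miR-192, abundant in kidney, gut and liver, had 57 reads (19.5 TPM) in RE35 against 3442 (2261 TPM) in NE35, a log2 ratio of −6.79 with a 95% counting interval of −7.26 to −6.48. miR-194b-5p had 78 reads in RE35 against 3388 in NE35 (log2 ratio −6.33, interval −6.72 to −6.06). miR-194a, whose gene neighbours that of miR-192 in the reference annotation, had 16 reads in RE35 against 663 in NE35 (log2 ratio −6.10). NE35 stood alone in these 3 miRNAs, since in the other 5 libraries miR-192 had 8.16 to 19.5 TPM, miR-194b-5p 11.1 to 26.7 TPM and miR-194a 4.29 to 5.87 TPM. The fourth member of the kidney list, miR-204, had 55 reads in RE35 against 135 in NE35 (log2 ratio −2.18, interval −2.72 to −1.77). The summed level of the 4 members was 70.5 TPM in RE35 against 5012 TPM in NE35, and 46.3 to 66.1 TPM in the later libraries.

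The gonad and epithelial miRNAs were also low in RE35. miR-202-5p, a miRNA of the gonads, had 2 reads in RE35 against 530 in NE35, the lowest ratio of all (log2 ratio −7.78, interval −12.0 to −7.13). miR-429, of the epithelial miR-200 family, had 45 reads in RE35 against 481 in NE35 (log2 ratio −4.28, interval −4.83 to −3.92). miR-205, of stratified epithelia, differed less, with 1417 reads in RE35 against 1199 in NE35 (log2 ratio −0.70). In the later libraries miR-429 had at most 0.50 TPM and miR-205 at most 6.03 TPM, so both 35 dg libraries held more of these miRNAs than the later ones. miR-371-5p had 0 reads in RE35 and 19 in NE35, which makes it at least 12.2-fold lower, with 3 reads as the floor.

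**Figure D2:**
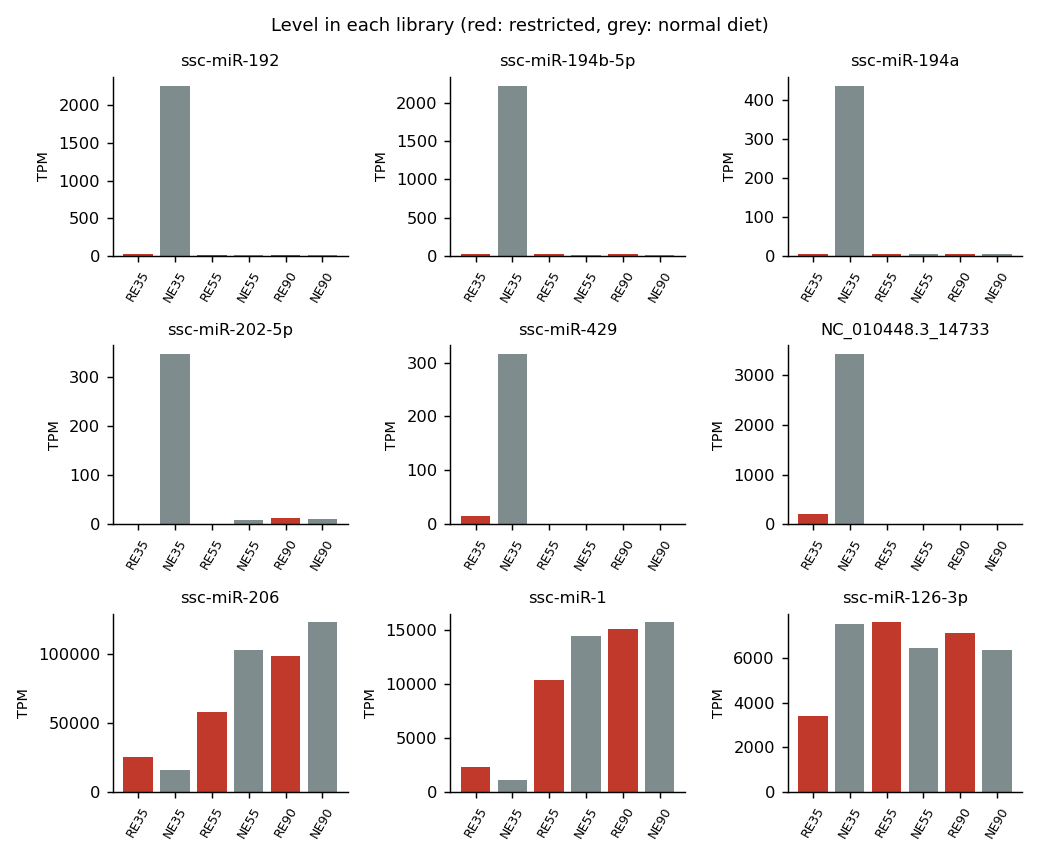
TPM of 9 miRNAs in each library, in red for the restricted and grey for the normal diet, each panel with its own axis from 0. NE35 is the highest library in miR-192, miR-194b-5p, miR-194a, miR-202-5p, miR-429 and NC_010448.3_14733. In miR-429 and NC_010448.3_14733, RE35 also lies above the later libraries. miR-206 and miR-1 are higher in RE35 than in NE35 and higher again in the later libraries.

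Several candidate miRNAs were also far lower in RE35 than in NE35. NC_010448.3_14733, with the seed given above, had 605 reads (207 TPM) in RE35 against 5230 (3436 TPM) in NE35 (log2 ratio −4.05, interval −4.18 to −3.93), and at most 7.43 TPM in the later libraries. NC_010447.4_14168 had 139 reads in RE35 against 1198 in NE35 (log2 ratio −4.02), and at most 1.56 TPM later. NC_010447.4_14166 had 354 reads in RE35 against 2322 in NE35 (log2 ratio −3.64), and NC_010447.4_13656 had 245 against 1771 (log2 ratio −3.78). The last 2 differ from the others in the later libraries, where they kept 45.1 to 59.7 TPM and 51.1 to 119.9 TPM. NC_010446.4_12775 had 36 reads in RE35 against 145 in NE35 (log2 ratio −2.86). Of the 19 candidates named after NC_010461.4, 8 were more than 2-fold lower in RE35, beside 12.6% of all 397 miRNAs. The reads of these 8 were few, from 2 to 490 in RE35. Several of them reached the minimum of 10 reads in NE35 only, such as NC_010461.4_20433 with 2 reads in RE35 against 15 in NE35. Their lower level in RE35, and so this count, is in part set by that minimum.

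The mRNA libraries of the same diets and stage were compared for markers of the same tissues. Of the 25 kidney and mesonephros markers found in the gene table, 20 reached 1 CPM, the count scaled to library size by TMM, in RE35 or NE35, and all 20 lay more than 2-fold below NE35. Of all 13001 genes at this level, 8.99% were more than 2-fold lower and 3.83% more than 2-fold higher in RE35, and 47.7% were lower and 52.3% higher at any size. Most of the 20, and several of the epithelial and gonad markers below, reached 1 CPM in NE35 only. Their lower level in RE35 is therefore in part set by this filter. The summed level of the 25, taken without the filter, was 13.3 CPM in RE35 against 788 CPM in NE35 and 10.3 to 15.8 CPM in the later libraries. CDH16, the kidney-specific cadherin, was at 0 counts in RE35 against 1604 in NE35. Of the 25 markers, 9 were at 0 counts in RE35 and 1 was at 0 in NE35. All 10 epithelial markers lay more than 2-fold below NE35, at a summed 23.6 CPM in RE35 against 550.5 CPM in NE35, among them EPCAM with 15 counts in RE35 against 1614 in NE35. The 9 gonad and steroidogenic markers found had a summed 29.5 CPM in RE35 against 45.9 CPM in NE35. SOX9 alone held 28.2 CPM of the sum in RE35 and 13.8 CPM of that in NE35. Of the 6 measured, 4 were more than 2-fold lower and 1 was more than 2-fold higher. The higher one was SOX9, also a cartilage gene, with 377 counts in RE35 against 194 in NE35, while CYP17A1, of steroid hormone synthesis, and INSL3, a hormone of Leydig cells, were at 0 in RE35 and at 116 and 82 counts in NE35. The part of these cell types in the miRNA ratios was not tested.

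**Figure D3:**
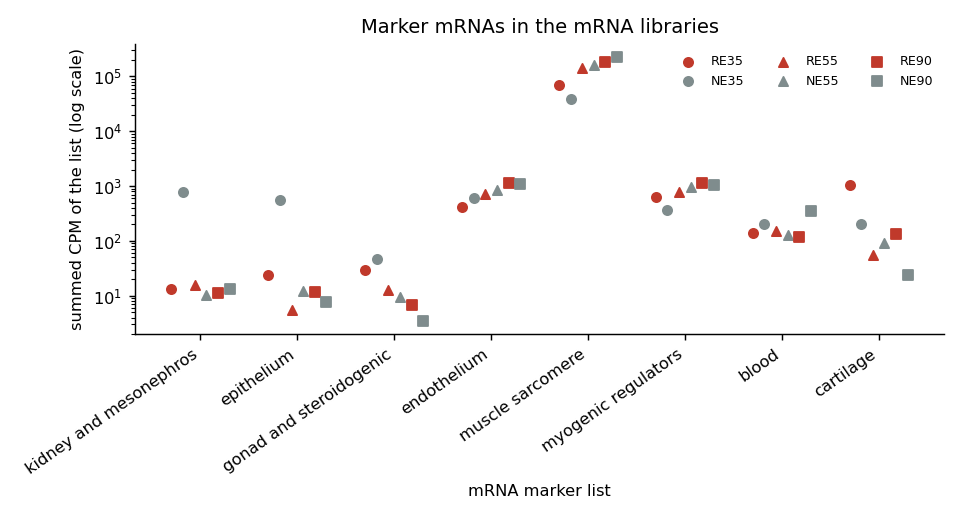
Summed CPM of 8 mRNA marker lists (log axis) in the 6 mRNA libraries, red for the restricted and grey for the normal diet. For kidney and mesonephros, RE35 is at 13.3 CPM with the later libraries and NE35 is at 788 CPM, and for muscle sarcomere RE35 is at 70242 CPM and NE35 at 38418 CPM.

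The muscle miRNAs were moderately higher in RE35. All 9 members of the list had a ratio above 0, as did 51.9% of all 397 miRNAs, with a median log2 ratio of 0.51 against 0.03 over all 397, and 0 of 9 passed 2-fold. With TMM or DESeq2 size factors 2 passed it, and with clean reads 7. miR-206, which is specific to skeletal muscle and promotes differentiation of myoblasts, had 73681 reads (25217 TPM) in RE35 against 24222 (15914 TPM) in NE35 (log2 ratio 0.66, interval 0.64 to 0.69). miR-1, with the same seed, had 6727 reads in RE35 against 1783 in NE35 (log2 ratio 0.97, interval 0.90 to 1.05). miR-133b, whose gene neighbours that of miR-206, had a log2 ratio of 0.51. miR-133a-5p and miR-133a-3p had log2 ratios of 0.68 and 0.49, and miR-486, of muscle and red cells, had 0.93. The myosin-encoded miR-208b, miR-499-5p and miR-499-3p had 0.38, 0.31 and 0.14, and the interval of miR-499-3p, −0.22 to 0.50, includes equal levels. The summed level of the list was 42225 TPM in RE35 against 27458 TPM in NE35, below the 125578 to 186085 TPM of the later libraries. In the mRNA libraries all 15 sarcomere markers and all 10 measured myogenic regulators were higher in RE35, 3 and 4 of them more than 2-fold, beside the 52.3% and 3.83% of all genes. Among them were MYH3, the embryonic myosin heavy chain, at a log2 ratio of 0.95 and MYF5 at 1.10. MSTN, which the study names as a negative regulator of myogenesis, had 1.18. LBX1, with 39 counts in RE35 against 10 in NE35, reached 1 CPM in RE35 only. Its higher level in RE35 is therefore in part set by this filter.

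miRNAs of the imprinted DLK1-DIO3 cluster, which is active in fetal tissues, were higher as a group. All 17 members had a ratio above 0, as did 51.9% of all 397 miRNAs. The 17 log2 ratios had a median of 0.65 and a range of 0.17 to 0.91, and 0 of 17 passed 2-fold. With TMM 6 passed it, with DESeq2 size factors 4 and with clean reads 15. miR-758 had 21376 reads in RE35 against 5963 in NE35 (log2 ratio 0.90), and miR-127 had 20264 against 5766 (log2 ratio 0.87). miR-382 had 132 reads in RE35 against 36 in NE35 (log2 ratio 0.91). The summed level was 33411 TPM in RE35 against 19138 TPM in NE35. The cartilage miRNAs miR-140-3p and miR-140-5p had log2 ratios of 0.62 and 0.57, and 7 of 8 cartilage mRNA markers were more than 2-fold higher in RE35 (3.83% of all genes), with COL2A1, the main collagen of cartilage, at 3451 counts in RE35 against 742 in NE35.

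Among the miRNAs with at least 100 reads in 1 of the 2 libraries, those with the highest ratios were candidates. Some with fewer reads lay higher, such as NC_010443.4_8125 with 14 reads in RE35 against 1 in NE35 (log2 ratio 1.87). NC_010451.3_18188 had 1267 reads in RE35 against 221 in NE35 (log2 ratio 1.57, interval 1.37 to 1.79). NC_010454.3_1179 had 768 reads in RE35 against 151 in NE35 (log2 ratio 1.40, interval 1.15 to 1.67), and NW_003613004.1_20509 has the same reads in all 6 libraries. Such shared values occur in 11 groups of names, 23 names in all. All 12 candidates named after NW_003539007.1 had a ratio above 0, from 0.29 to 1.06, beside 51.9% of all 397 miRNAs above 0. miR-378b-3p, of a family linked to energy metabolism, had 420 reads in RE35 against 107 in NE35 (log2 ratio 1.02) and was the only known miRNA with at least 100 reads above 2-fold. Candidates took 5.88% of the reads in RE35 (Wilson 95% interval 5.85% to 5.90%) against 5.57% in NE35 (5.54% to 5.61%), and such intervals cover counting error only.

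Several widely expressed families were lower in RE35. All 8 members of the miR-30 family, which is abundant in kidney and many other tissues, had a ratio below 0, as did 191 of all 397 miRNAs. The 8 had a median log2 ratio of −0.98, and 4 of them were more than 2-fold lower, beside 12.6% of all 397. With TMM 3 of 8 were more than 2-fold lower, and with clean reads 2 of the 8 were above 0. miR-30a-5p, the lowest, had 10256 reads in RE35 against 26911 in NE35 (log2 ratio −2.33, interval −2.37 to −2.30), and miR-30e-5p, among the 10 most abundant, had 81419 against 72949 (log2 ratio −0.78). The arms of the miR-30a hairpin differed by 1.07 on the log2 scale, the largest difference among 34 hairpins with at least 50 reads per arm and library, whose median difference was 0.17. miR-29a, which represses collagen genes, had 305 reads in RE35 against 711 in NE35 (log2 ratio −2.15). miR-34a, a target of p53, had 115 against 176 (log2 ratio −1.53). The endothelial miR-126-3p had 9963 reads in RE35 against 11403 in NE35 (log2 ratio −1.14, interval −1.17 to −1.10) and miR-126-5p had a log2 ratio of −0.98. With TMM 0 of these 2 passed 2-fold. Of 9 endothelial mRNA markers, 8 were lower in RE35 (47.7% of all genes), 0 of them more than 2-fold (8.99% of all genes).

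**Figure D4:**
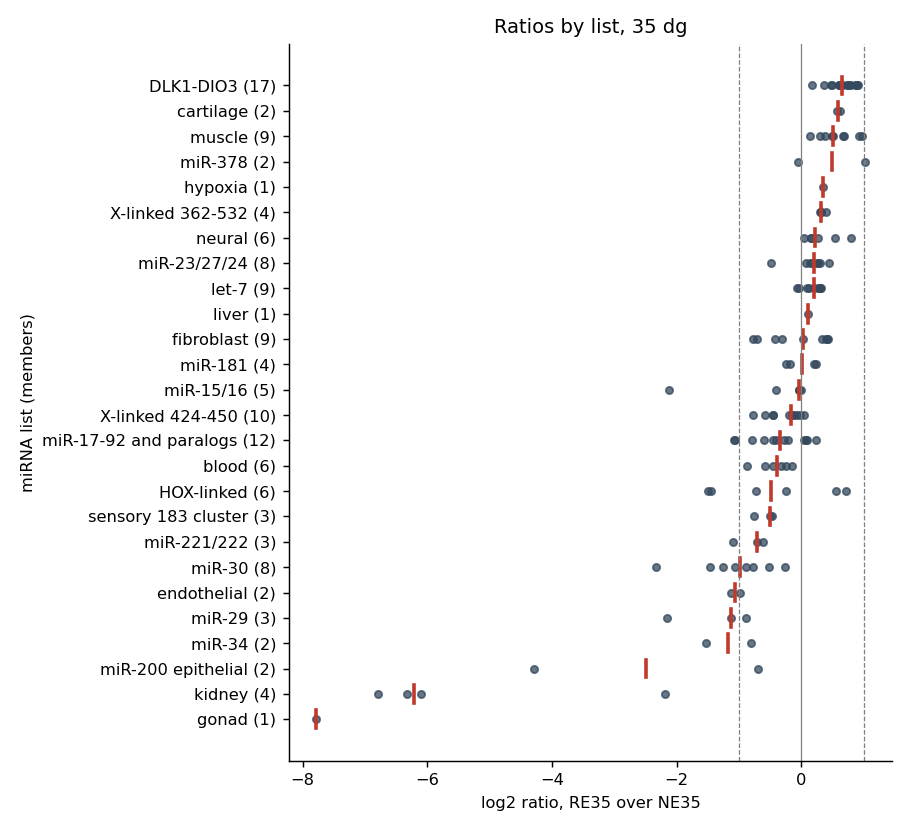
Log2 ratio of RE35 over NE35 (horizontal axis) for each member of 26 miRNA lists, with the list median as a red bar, the number of members in brackets and dashed lines at 2-fold. The kidney median is −6.22, that of miR-30 −0.98, that of muscle 0.51 and that of DLK1-DIO3 0.65.

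The miRNAs encoded in the HOX gene clusters, which pattern the body axis, were divided. miR-10a-5p had 18831 reads in RE35 against 26821 in NE35 (log2 ratio −1.45), miR-10a-3p had a log2 ratio of −1.50 and miR-10b one of −0.73. miR-196a and miR-196b-5p had log2 ratios of 0.72 and 0.56, and the interval of miR-615, −0.55 to 0.07, includes equal levels. Of the X-linked neighbours miR-363, miR-20b, miR-106a and miR-18b, the first 3 had log2 ratios of −1.07, −1.06 and −0.79 and miR-18b had 0.10. Among the 10 most abundant miRNAs the log2 ratios were small, from −0.78 in miR-30e-5p to 0.47 in miR-100, with miR-99a, the leading miRNA, at 270833 reads in RE35 against 118139 in NE35 (log2 ratio 0.26). The fibroblast miRNAs were also divided, with miR-199a-3p at 0.42 and miR-143-3p at −0.71. The let-7 family, which is widespread in differentiated cells, had a median log2 ratio of 0.20.

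In the remaining lists the direction of several depended on the scaling. All 6 neural miRNAs had a ratio above 0, beside 51.9% of all 397 miRNAs. The names miR-9-1 and miR-9-2 have the same reads in every library (611 in RE35 against 286 in NE35), so they are not separate measurements. The list median was 0.21, and miR-128 had 4773 reads in RE35 against 1432 in NE35 (log2 ratio 0.80). The sensory miR-182, miR-183 and miR-96-5p, which neighbour each other, had log2 ratios of −0.76, −0.47 and −0.51, and with clean reads 2 of the 3 were above 0. miR-221-5p, miR-222 and miR-221-3p, which also neighbour each other, had log2 ratios of −1.09, −0.71 and −0.61, and with clean reads 1 of the 3 was above 0. The 12 members of the miR-17-92 cluster and its paralogs, known for cell proliferation, had a median of −0.34, which was 0.32 with clean reads. The 6 blood miRNAs had a median of −0.39, with the red-cell miR-451 at −0.87, and 0.27 with clean reads. The 10 X-linked miRNAs with miR-424-5p and miR-450b-3p had a median of −0.17, and 0.08 with TMM, whereas the 4 X-linked miRNAs from miR-362, miR-500 and their neighbour had ratios of 0.31 to 0.40. In the miR-15/16 list miR-497 stood lowest, with 9 reads in RE35 against 25 in NE35 (log2 ratio −2.12), and the list median was −0.04, or 0.21 with TMM. miR-23, miR-27 and miR-24 together had a median of 0.21, and miR-210, which responds to low oxygen, had 1209 reads in RE35 against 497 in NE35 (log2 ratio 0.34). miR-122, the miRNA of liver cells, had 27 reads in RE35 against 13 in NE35, with an interval of −0.89 to 1.19 that includes equal levels.

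With 1 library per diet at 35 dg, a test needs another measure of the spread. In the quasi-likelihood test of edgeR the RE and NE libraries of 55 dg and of 90 dg were taken as replicates of their stage, which leaves 2 residual degrees of freedom and assumes that the 35 dg libraries vary like the later ones. Of 377 miRNAs tested, 6 (1.59%) were called lower and 0 (0%) higher at a Benjamini-Hochberg adjusted p under 0.05, while 53 had an unadjusted p under 0.05. The fitted log2 fold change of miR-192 was −6.60, with a standard error of 0.362 and an edgeR adjusted p of 0.00389. The standard errors given with edgeR were derived from the log2 fold change and the F statistic of the test. miR-194a, miR-194b-5p, NC_010447.4_14166, NC_010447.4_13656 and NC_010448.3_14733 were the other 5, with adjusted p from edgeR of 0.0112 to 0.0424. miR-202-5p, with the largest log2 fold change (−8.62, standard error 2.15), was not called by edgeR (adjusted p = 0.226 from edgeR). DESeq2 called it lower, with a log2 fold change of −8.79 (standard error 2.01). DESeq2 called 18, of which 6 were higher and 12 lower. Without the 90 dg libraries edgeR called 0, with 40 at an unadjusted p under 0.05, and without the 55 dg libraries it called 8. No muscle miRNA was called by either tool, and of the DLK1-DIO3 members 0 of 17 were called by edgeR and 3 by DESeq2.

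The ratios of the diets were also compared across stages. This was done over the 248 miRNAs with a mean of at least 100 reads in the 6 libraries. The lowest log2 ratio of RE over NE was −7.78 at 35 dg, −3.61 at 55 dg and −1.23 at 90 dg. At 35 and 55 dg the lowest was miR-202-5p. The highest was 1.57, 1.56 and 7.49 in the same order of stages, and 26, 13 and 24 miRNAs passed 2-fold in either direction. The SD of the ratios was 1.15, 0.53 and 0.89. miR-192 had log2 ratios of 0.32 at 55 dg and −0.03 at 90 dg. RE90 stood apart in neural and sensory miRNAs, with miR-124a at 182 TPM in RE90 against 0.39 TPM in NE90 and miR-183 at 757 against 54.2 TPM, and such values enter the spread that edgeR used. No miRNA was called for diet over all 3 stages by edgeR (0 of 377, with 13 at an unadjusted p under 0.05), DESeq2 called 1, and without the 90 dg libraries edgeR called 16.

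**Figure D5:**
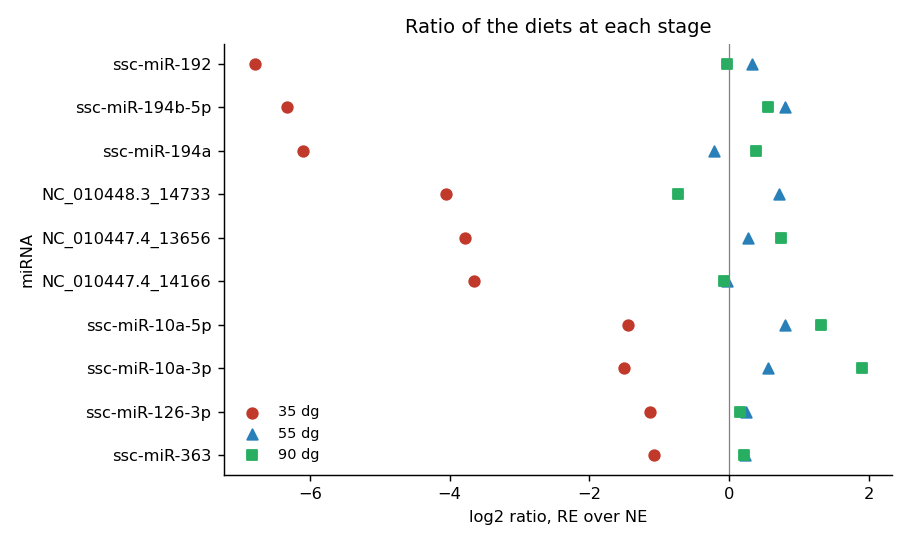
Log2 ratio of RE over NE (horizontal axis) at 35, 55 and 90 dg for 10 miRNAs. The 35 dg points lie below −1 for all 10, down to −6.79 for miR-192, and the later points lie between −0.74 and 1.90.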

How the data were processed

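Small RNA was sequenced from fetal longissimus muscle. Per the study's methods, the authors trimmed the adaptor, selected by length and predicted candidate miRNAs with miRDeep2, and the submitters' processing notes name Bowtie. They deposited read counts for each miRNA together with TPM, which by their column sums are relative to the reads on the listed miRNAs. The authors aligned mRNA reads with TopHat2 and deposited counts per gene. For sequencing, a fetus of near average weight was selected from each sow, per the study's methods. Whether the RNA of several fetuses was pooled is not given in the sources used here. Any p-value therefore measures only the spread between these libraries. RPKM was not used.

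Log2 ratios were computed from the counts of RE35 and NE35 with a prior count of 2, with exact conditional binomial intervals of 95% that cover counting error only. Two-sided Fisher's exact test set each miRNA's reads against the remaining miRNA reads. edgeR 4.0.16 and DESeq2 1.42.0 in R 4.3.3 were fitted to the miRNAs that reached 10 reads in 2 or more libraries, and the rest was done in Python 3.11.15 with scipy 1.17.1. On simulated data edgeR recovered 28 of 40 miRNAs with a 4-fold change and 2 of 20 with a 2-fold change at 35 dg, and called 0 of 313 unchanged ones. These counts hold for the spread set in the simulation only. Whether they hold for the real libraries was not tested. In the real libraries the log2 ratios of RE over NE had an SD of 0.53 at 55 dg and 0.89 at 90 dg over 248 miRNAs. Named miRNAs are the 10 most abundant, the 12 highest and 12 lowest ratios with at least 100 reads in 1 library, all members of 6 lists, up to 3 of each other list, and candidates that the study names. The miRNAs and lists were chosen with earlier results of these data known. The restricted diet is labelled SE in the deposited tables. Alternatives covered scaling, read minimum, prior count, shared names, tests and leaving out stages.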

Additional observations from a re-analysis of the deposited data

Results flagged for a closer look

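The 5 results below are listed because the ratio at 35 dg and the ratios at both later stages had opposite signs, each beyond counting error on the scale of all miRNA reads. With 1 library per diet and stage the difference was not tested between samples of a stage. In an edgeR test of the 35 dg ratio against the later ratios, chosen after seeing the data, 0 of 377 miRNAs were called and 35 had an unadjusted p under 0.05. The candidate NC_010447.4_13656 had a log2 ratio of −3.78 at 35 dg, 0.27 at 55 dg and 0.75 at 90 dg. miR-10a-3p had −1.50, 0.56 and 1.90 at the same stages, and miR-10a-5p had −1.45, 0.80 and 1.32. miR-126-3p had −1.14, 0.24 and 0.16, and miR-363 had −1.07, 0.23 and 0.21. With TMM, an alternative chosen after seeing the data, the 55 dg ratios of NC_010447.4_13656, miR-126-3p and miR-363 were 0.03, −0.01 and −0.02, so their opposite sign at 55 dg rests on the scaling, while miR-10a-3p and miR-10a-5p had 0.32 and 0.56.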

How the results depend on the processing

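The number of miRNAs more than 2-fold higher in RE35 (14) became 33 with TMM, 27 with DESeq2 size factors, 96 with clean reads, 9 with at least 50 reads and 37 with at least 1 read. The number more than 2-fold lower (50) became 27 with clean reads, 30 with at least 50 reads and 103 with at least 1 read. By fold and Fisher's test, the number higher (9) became 27 with TMM, 20 with size factors and 86 with clean reads, and the number lower (43) became 25 with clean reads. The median log2 ratio over all miRNAs became 0.68 with clean reads. The calls at 35 dg (6) became 18 with DESeq2 and 0 without the 90 dg libraries, which leaves 1 residual degree of freedom, and the calls for diet over all stages (0) became 1 with DESeq2 and 16 without the 90 dg libraries. The cause was not tested, beyond the changed scale or number of miRNAs. No value past 2-fold changed its sign under the alternatives run. A prior count of 0.5, counting shared names once and totals without the 24 miRNAs at the extremes (chosen after seeing the data) kept the counts within 1.5 times. Of the 101 named ratios, 65 moved by more than their counting error with TMM, 60 with size factors and 90 with clean reads. The fit for diet over all stages has stage as a block, which pairs the RE and NE libraries of a stage, and without this block it also called 0. At 35 dg alone no paired analysis was possible because each diet has 1 library. Ratios of miRNAs with few reads have wide counting intervals.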
